A study of Mus musculus with 8 samples.

Results

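The transcript of p53 itself (Trp53) and 9 genes that p53 is known to activate were followed in mouse liver RNA. The 10 genes were Trp53, Mdm2, Cdkn1a, Ccng1, Gadd45a, Bax, Bbc3, Pmaip1, Phlda3 and Trp53inp1, taken by symbol from a table of 21899 genes. All 10 were found and all 10 passed the expression filter of the test. Read counts were available for 8 libraries of liver taken 8 h after concanavalin A (ConA), a lectin that triggers T cells and in mice produces an immune-mediated hepatitis. The 4 wild-type libraries and the 4 P2X4R-deficient libraries all came from ConA-treated mice, and livers without ConA were not analysed here. P2X4R is the P2X4 receptor, a cation channel opened by ATP and encoded by P2rx4. The deficient genotype appears as P2X4R knockdown in the sample labels and as P2X4R-/- in the series design. The altered stretch of the gene and the cells affected are not stated, and the sources used here give no strain, age or sex. Nothing in the labels ties each library to its own animal, so the p-values reflect only how far these samples spread, which may be technical.

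p53 is a transcription factor that is kept scarce by the ubiquitin ligase MDM2, which it induces itself. DNA damage and other stresses act mainly by stabilizing the p53 protein, so Trp53 mRNA need not follow p53 activity. Its targets halt the cell cycle (Cdkn1a, Ccng1, Gadd45a), promote mitochondrial apoptosis (Bax, Bbc3, Pmaip1), restrain AKT signalling (Phlda3) or feed back on p53 and autophagy (Trp53inp1), and several of them also respond to other stress and inflammatory signals. In liver, Cdkn1a is known for restraining hepatocyte division after injury.

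The p53 protein binds paired copies of a 10-base motif, called the p53 decamer here. RefSeq promoter windows of GRCm38.p6, which run from 250 bases before to 50 bases after a gene's start, were at hand for 8 of the 10 genes, in 11 windows. A decamer match was present in windows of 6 of these 8 genes, against 8.36% of all 32851 windows. The first count is by gene and the second by window, and the genes were taken as known p53 targets. The values are thus not directly comparable and are not read as an excess. The Cdkn1a window at the upstream of its starts held 2 matches with 12 bases between them. Such a pair, with a spacer of up to 13 bases, was present in 0.0731% of all windows, and Cdkn1a was the only one of the 8 genes to have it. The matches are shown with 10 bases on either side, 5′ to 3′ along the gene, with the decamer in capitals, so that the genes can be compared at this motif. Whether p53 acts through these stretches was not tested. Only exact matches to the motif were counted, so a neighbouring copy with a differing base is not marked. A match or a pair of matches is a description of the letters and not evidence of binding.
Trp53, chr11:69580274-69580303, plus strand: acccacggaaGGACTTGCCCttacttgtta
Mdm2, chr10:117710925-117710954, minus strand: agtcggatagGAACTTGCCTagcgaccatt
Cdkn1a (upstream match), chr17:29090896-29090925, plus strand: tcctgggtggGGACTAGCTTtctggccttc
Cdkn1a (downstream match), chr17:29090918-29090947, plus strand: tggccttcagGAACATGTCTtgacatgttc
Ccng1, chr11:40755452-40755481, minus strand: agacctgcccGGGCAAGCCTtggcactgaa
Gadd45a, chr6:67037428-67037457, minus strand: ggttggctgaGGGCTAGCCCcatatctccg
Bax, chr7:45467080-45467109, minus strand: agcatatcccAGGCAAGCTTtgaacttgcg

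The first bases of these matches lay 75 bases before the start of Trp53, 186 before that of Mdm2, 73 and 51 before the upstream start of Cdkn1a, 185 before that of Ccng1, 40 before that of Gadd45a and 201 before that of Bax. Those with a match included genes that were higher in deficient livers (Ccng1, Bax), lower (Gadd45a) and not past the threshold (Trp53, Mdm2, Cdkn1a). Phlda3 and Bbc3 had no match in their windows. For these genes alone, the bases after the start were not found in a transcript of the gene in the GENCODE annotation. Their starts are therefore less certain, and whether the placement of the windows had a part was not tested. The 250 bases before the start are shown for the 4 genes whose libraries did not overlap between the genotypes, again with the decamer in capitals.
Ccng1, chr11:40755287-40755536, minus strand: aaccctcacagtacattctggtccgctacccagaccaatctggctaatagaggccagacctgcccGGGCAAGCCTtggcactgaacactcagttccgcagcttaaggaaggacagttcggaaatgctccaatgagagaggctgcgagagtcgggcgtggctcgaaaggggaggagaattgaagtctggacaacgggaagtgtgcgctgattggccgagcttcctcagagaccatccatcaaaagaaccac
Gadd45a, chr6:67037408-67037657, minus strand: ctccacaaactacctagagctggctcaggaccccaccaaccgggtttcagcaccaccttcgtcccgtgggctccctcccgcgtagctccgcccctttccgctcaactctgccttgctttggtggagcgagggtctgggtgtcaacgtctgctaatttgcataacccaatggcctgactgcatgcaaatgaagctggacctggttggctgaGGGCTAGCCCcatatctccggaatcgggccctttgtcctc
Bax, chr7:45466899-45467148, minus strand: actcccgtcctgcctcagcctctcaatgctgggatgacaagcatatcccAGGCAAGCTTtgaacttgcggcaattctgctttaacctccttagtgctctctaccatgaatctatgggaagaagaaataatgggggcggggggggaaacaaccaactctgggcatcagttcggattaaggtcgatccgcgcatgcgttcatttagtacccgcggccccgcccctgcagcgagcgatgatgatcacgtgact
Phlda3, chr1:135765835-135766084, plus strand: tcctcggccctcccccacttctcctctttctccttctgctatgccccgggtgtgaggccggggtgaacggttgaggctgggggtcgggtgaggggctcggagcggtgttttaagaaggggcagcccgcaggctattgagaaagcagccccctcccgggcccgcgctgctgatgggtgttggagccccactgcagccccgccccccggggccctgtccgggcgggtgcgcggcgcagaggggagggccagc

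Other motifs were counted on both strands of the same windows, overlaps between motifs being allowed. The GC box GGGCGG was present for 6 of the 8 genes (35.7% of all windows), among them Phlda3, Gadd45a and Bax but not Ccng1. The CCAAT box was present for 5 (37.4% of all windows), among them Ccng1 and Gadd45a. An NF-kB motif was present for Trp53 and Bbc3 (4.51% of all windows), and TATAAA for Trp53 (13.6%). The AP-1 motif TGANTCA (7.81% of all windows) and the cyclic AMP response core TGACGTCA (1.79%) matched in none of the 11 windows. Genes with several windows have more bases in which to match, so these shares are not directly comparable.

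The libraries held 15445285 to 16604190 counted reads. CPM is counts per 1e6 reads after TMM scaling. A count of 0 allows up to 3 reads, which corresponded to 0.181 to 0.194 per 1e6 counted reads before TMM scaling. This floor covers counting error only, since the reads carry no molecular identifiers. P2rx4 was at 17.3, 24.9, 27.0 and 29.6 CPM in deficient libraries 1 to 4 and at 43.8, 62.4, 59.7 and 57.6 CPM in wild-type libraries 1 to 4. P2rx4 thus fell in deficient livers (log2 difference -1.18, SE 0.19, edgeR adjusted p = 0.00481). Hepatocyte markers, which define the labelled tissue, were abundant in all 8 libraries.

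Of the 10 genes, 3 rose in deficient livers (Ccng1, Bax and Phlda3), 2 fell (Gadd45a and Trp53inp1) and 5 did not pass the threshold of an edgeR adjusted p under 0.05. Of the 11380 genes tested, 19.9% passed it, 9.27% higher and 10.6% lower in deficient livers. Wild-type and deficient libraries did not overlap for 4 of the 10 genes, against 24.9% of the genes tested. The median log2 difference of the 10 genes was -0.057, beside -0.00147 over all genes tested, with single values between -2.12 and 1.86. With so few genes these counts describe the genes and are not read as a difference from the background.

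**Figure D1:**
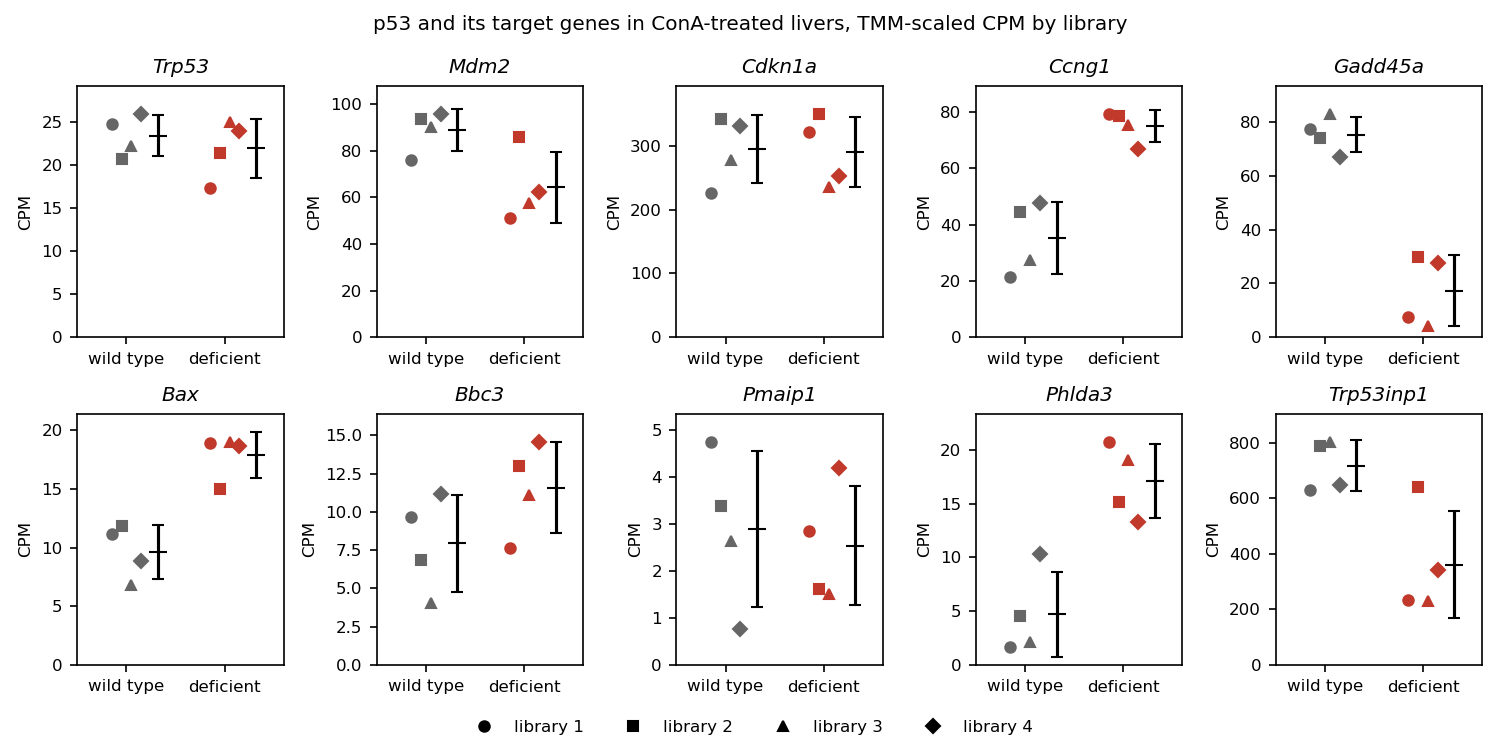
TMM-scaled CPM of the 10 genes in each library (marker shape gives the library number), with the mean and SD of the 4 libraries of each genotype beside the points. Ccng1, Bax and Phlda3 are higher and Gadd45a is lower in every deficient library than in every wild-type library, whereas the ranges of Trp53 and Cdkn1a overlap between the genotypes.

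Trp53 (ENSMUSG00000059552, chromosome 11, 69471185 to 69482699 on the plus strand) encodes p53. It was at 17.4, 21.4, 25.0 and 24.0 CPM in deficient libraries 1 to 4 and at 24.7, 20.7, 22.2 and 26.0 CPM in wild-type libraries 1 to 4. The lowest value was that of deficient library 1, and the other 3 deficient libraries lay within the wild-type range. The deficient mean was 22.0 ± 3.42 CPM and the wild-type mean 23.4 ± 2.39 CPM (SD, n = 4 each). The log2 difference was -0.09 (SE 0.16, 95% interval -0.44 to 0.25, edgeR adjusted p = 0.717), which bounds the deficient level between 0.739 and 1.19 times the wild-type level. The sign of this estimate changed with the scaling, to 0.05 when libraries were scaled by their totals alone. Wrap53, which lies 104 bases from Trp53 on the opposite strand and shares no listed base with it, rose by 0.78 (SE 0.25, edgeR adjusted p = 0.0454).

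Mdm2 (ENSMUSG00000020184, chromosome 10, 117524780 to 117546663 on the minus strand) encodes the ligase that marks p53 for degradation and is itself a p53 target. The deficient libraries 1 to 4 were at 51.2, 86.0, 57.6 and 62.3 CPM and the wild-type libraries at 76.1, 93.4, 90.3 and 95.8 CPM. Deficient libraries 1, 3 and 4 lay below all wild-type libraries, and deficient library 2 lay within the wild-type range. Means were 64.3 ± 15.2 and 88.9 ± 8.86 CPM (SD, n = 4 each). The log2 difference of -0.47 (SE 0.18, 95% interval -0.86 to -0.08) did not pass the threshold (edgeR adjusted p = 0.083). Without deficient library 2 it was -0.64 and passed (edgeR adjusted p = 0.02).

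Cdkn1a (ENSMUSG00000023067, chromosome 17, 29309950 to 29319701 on the plus strand) encodes p21, the inhibitor of cyclin-dependent kinases through which p53 halts the cell cycle. Its libraries were at 322, 351, 236 and 252 CPM in deficient and at 227, 342, 278 and 332 CPM in wild-type livers. The ranges almost coincided, and each genotype had both libraries near the top and libraries near the bottom of the range. Means were 290.3 ± 54.7 and 295 ± 53.3 CPM (SD, n = 4 each). The log2 difference was -0.02 (SE 0.19, edgeR adjusted p = 0.947), with a 95% interval of -0.43 to 0.39, or 0.740 to 1.31 times the wild-type level. Its sign also changed with the scaling, to 0.12 with library totals alone.

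Ccng1 (ENSMUSG00000020326, chromosome 11, 40639379 to 40646138 on the minus strand) encodes cyclin G1, which recruits a phosphatase to MDM2. It was at 79.4, 78.5, 75.6 and 66.9 CPM in deficient libraries 1 to 4 and at 21.3, 44.4, 27.5 and 47.9 CPM in wild-type libraries 1 to 4. Every deficient library lay above every wild-type library. The deficient libraries were close to each other, with a coefficient of variation of 7.62%, whereas the wild-type libraries varied by 36.5%, numbers 1 and 3 being lower than numbers 2 and 4. Means were 75.1 ± 5.72 and 35.3 ± 12.9 CPM (SD, n = 4 each). Ccng1 rose by 1.09 on the log2 scale (SE 0.24, 95% interval 0.58 to 1.603, edgeR adjusted p = 0.0116), a 2.13-fold rise. In an exact permutation test (two-sided) p was 0.0286, the smallest that 4 against 4 libraries allow.

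Gadd45a (ENSMUSG00000036390, chromosome 6, 67012080 to 67014441 on the minus strand) encodes a small stress protein that acts in growth arrest and in signalling to p38 and JNK kinases. It was at 7.54, 29.9, 4.34 and 27.4 CPM in deficient libraries 1 to 4, and at 77.3, 73.9, 83.0 and 67.2 CPM in wild-type libraries 1 to 4. All deficient libraries lay below all wild-type libraries, and they formed a low pair (numbers 1 and 3) and a higher pair (numbers 2 and 4). The spread was thus the reverse of that of Ccng1, with a coefficient of variation of 76.4% in deficient and 8.80% in wild-type livers. Means were 17.3 ± 13.2 and 75.4 ± 6.63 CPM (SD, n = 4 each). Gadd45a fell by 2.12 on the log2 scale (SE 0.48, 95% interval -3.17 to -1.07, edgeR adjusted p = 0.0137), to 23.0% of the wild-type level. The exact permutation test gave p = 0.0286, and the fall ranked 47th in size among the 1209 genes that fell.

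Bax (ENSMUSG00000003873, chromosome 7, 45111121 to 45116322 on the minus strand) encodes a BCL2-family protein that permeabilizes the outer mitochondrial membrane in apoptosis. Its deficient libraries were at 18.9, 15.0, 19.0 and 18.7 CPM and its wild-type libraries at 11.2, 11.8, 6.79 and 8.84 CPM. The groups did not overlap, deficient library 2 being the lowest of its group and wild-type library 3 the lowest of all. Means were 17.9 ± 1.95 and 9.66 ± 2.30 CPM (SD, n = 4 each). Bax rose by 0.89 on the log2 scale (SE 0.20, 95% interval 0.46 to 1.32, edgeR adjusted p = 0.0124), a 1.85-fold rise, and the exact permutation test gave p = 0.0286. The table lists Gm45808 over 915 bases of Bax on the same strand, with 0 reads in every library.

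Bbc3 (ENSMUSG00000002083, chromosome 7, 16042318 to 16052130 on the plus strand) encodes PUMA, a BH3-only protein that neutralizes survival members of the BCL2 family. It was at 7.66, 12.98, 11.1 and 14.6 CPM in deficient and at 9.68, 6.89, 4.02 and 11.2 CPM in wild-type libraries. The groups overlapped, the lowest deficient library lying below 2 of the wild-type libraries. The log2 difference was 0.54 (SE 0.30, 95% interval -0.11 to 1.20, edgeR adjusted p = 0.222). Pmaip1 (ENSMUSG00000024521, chromosome 18, 66591604 to 66598636 on the plus strand) encodes NOXA, another BH3-only protein, and was the least abundant of the 10 genes, with 12 to 75 reads per library. It was at 2.84, 1.62, 1.504 and 4.19 CPM in deficient and at 4.75, 3.37, 2.64 and 0.769 CPM in wild-type libraries, and the highest and the lowest value were both wild type. Its log2 difference was -0.18 (SE 0.49, edgeR adjusted p = 0.827), with a 95% interval of -1.25 to 0.89, so differences of either sign within it could not be resolved. The coefficient of variation among wild-type libraries was 57.5%.

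Phlda3 (ENSMUSG00000041801, chromosome 1, 135693857 to 135696874 on the plus strand) encodes a pleckstrin-homology protein that competes with AKT for membrane lipids. It was at 20.8, 15.2, 19.1 and 13.3 CPM in deficient libraries 1 to 4 and at 1.71, 4.57, 2.18 and 10.3 CPM in wild-type libraries 1 to 4. The groups did not overlap, but wild-type library 4 was closer to the lowest deficient library than to the other wild-type libraries. Means were 17.1 ± 3.45 and 4.69 ± 3.95 CPM (SD, n = 4 each). Phlda3 rose by 1.86 on the log2 scale (SE 0.45, 95% interval 0.88 to 2.84, edgeR adjusted p = 0.0172), a 3.63-fold rise that ranked 57th in size among the 1055 genes that rose. The exact permutation test gave p = 0.0286. Without wild-type library 4 the rise was 2.62, and without wild-type library 3 it was 1.62 and no longer passed (edgeR adjusted p = 0.05002).

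Trp53inp1 (ENSMUSG00000028211, chromosome 4, 11156431 to 11174379 on the plus strand) encodes a stress-induced protein that promotes p53 activity and autophagy. It was at 232.5, 641, 232 and 340 CPM in deficient libraries 1 to 4, and at 628, 787, 804 and 647 CPM in wild-type libraries 1 to 4. Deficient library 2 lay above the lowest wild-type library, so the groups overlapped, and the other 3 deficient libraries lay below all wild-type libraries. Means were 361 ± 193 and 717 ± 91.5 CPM (SD, n = 4 each). Trp53inp1 fell by 0.99 on the log2 scale (SE 0.30, 95% interval -1.63 to -0.34, edgeR adjusted p = 0.0365), to 50.4% of the wild-type level, and the exact permutation test gave p = 0.0571. The call was lost without any one of deficient libraries 1, 3 and 4 (edgeR adjusted p = 0.0823, 0.0969 and 0.0752) and of wild-type libraries 2, 3 and 4 (edgeR adjusted p = 0.0732, 0.0934 and 0.0569). The fall was 1.42 on the log2 scale without deficient library 2.

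**Figure D2:**
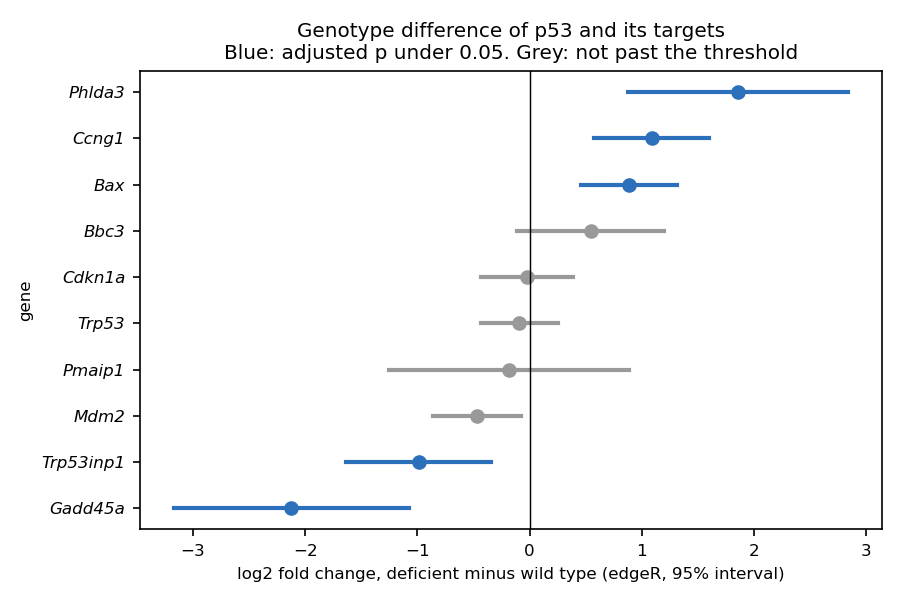
Log2 fold change of each gene (deficient minus wild type, horizontal axis) with its 95% interval from edgeR, ordered by size. The estimates run from -2.12 for Gadd45a to 1.86 for Phlda3, and those of Cdkn1a, Trp53 and Pmaip1 lie near 0.

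Gadd45a and Trp53inp1, which fell, and Mdm2, which did not pass, shared an order of the deficient libraries. Among these, number 2 had the highest level of Gadd45a, Trp53inp1 and Mdm2, number 4 the next highest, and numbers 1 and 3 the lowest pair. Relative to the mean of the wild-type libraries on the log2 scale, Gadd45a was at -3.32, -1.33, -4.11 and -1.46 in deficient libraries 1 to 4. The corresponding values were -1.61, -0.15, -1.62 and -1.07 for Trp53inp1. Among wild-type libraries, Ccng1 and Phlda3 were both lowest in number 1, followed by numbers 3, 2 and 4. These orders rest on 4 libraries a genotype and are given as descriptions.

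**Figure D3:**
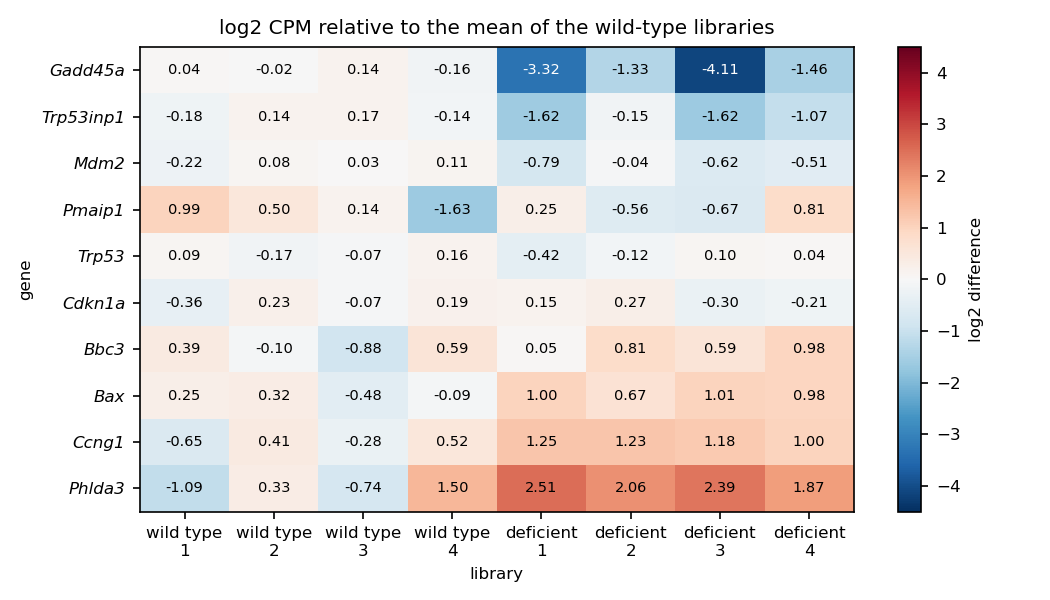
Log2 CPM of each gene (rows, ordered by fold change) in each library (columns) relative to the mean of the 4 wild-type libraries. Deficient libraries 1 and 3 are the darkest blue for Gadd45a, at -3.32 and -4.11, and deficient library 2 is near the wild-type mean for Trp53inp1 and Mdm2, at -0.15 and -0.04.

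Levels of different genes were compared as FPKM, which divides reads by gene length and is not TMM-scaled. In wild-type livers the order of mean FPKM was Trp53inp1 at 104.8, Cdkn1a at 78.6, Gadd45a at 40.6, Mdm2 at 16.6, Ccng1 at 9.50, Bax at 5.84, Trp53 at 5.51, Bbc3 at 3.58, Phlda3 at 2.86 and Pmaip1 at 1.01. Libraries of neighbouring genes did not overlap from Trp53inp1 down to Ccng1, and from Ccng1 on each gene overlapped with the next. In deficient livers Cdkn1a was first at 85.7 FPKM, followed by Trp53inp1 at 58.0, which overlapped with it, and by Ccng1 at 22.5, which overlapped with neither neighbour. Mdm2 (13.2), Bax (12.0), Phlda3 (11.5), Gadd45a (10.2), Bbc3 (5.71) and Trp53 (5.71) then each overlapped with the next gene in the order, except that Trp53 lay above Pmaip1 (0.978) in every library. Gadd45a thus went from the third place to the seventh, and Ccng1 from the fifth to the third.

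Because Cdkn1a is the best known p53 target and had the estimate closest to 0, the other 9 genes were also expressed as reads per 1000 Cdkn1a reads of the same library, a ratio that no scaling between libraries affects. Ccng1 stood at 264 ± 40.96 in deficient and 117 ± 24.2 in wild-type livers (SD, n = 4 each), and Phlda3 at 60.3 ± 16.2 and 14.9 ± 11.1. Gadd45a stood at 59.0 ± 45.0 and 264 ± 66.3, Trp53inp1 at 1220 ± 481 and 2477 ± 435, and Mdm2 at 224 ± 43.1 and 305 ± 29.4. For these 5 genes no deficient library overlapped with a wild-type library, and the exact permutation p (two-sided) was 0.0286 for each, the lowest attainable. Bax stood at 64.0 ± 16.9 and 33.7 ± 11.3 (exact permutation p = 0.0571). The ratios of Trp53, Bbc3 and Pmaip1 overlapped, with exact permutation p = 0.886, 0.2 and 0.686. These 9 ratios share the Cdkn1a reads, and their p-values are not adjusted for their number. Cdkn1a was chosen as divisor partly from its estimate in these same data. In CPM, Mdm2 and Trp53inp1 overlapped between the genotypes (exact permutation p = 0.0571 each), so their separation here rests on this divisor. Bax went the other way, without overlap in CPM and with overlap in this ratio.

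**Figure D4:**
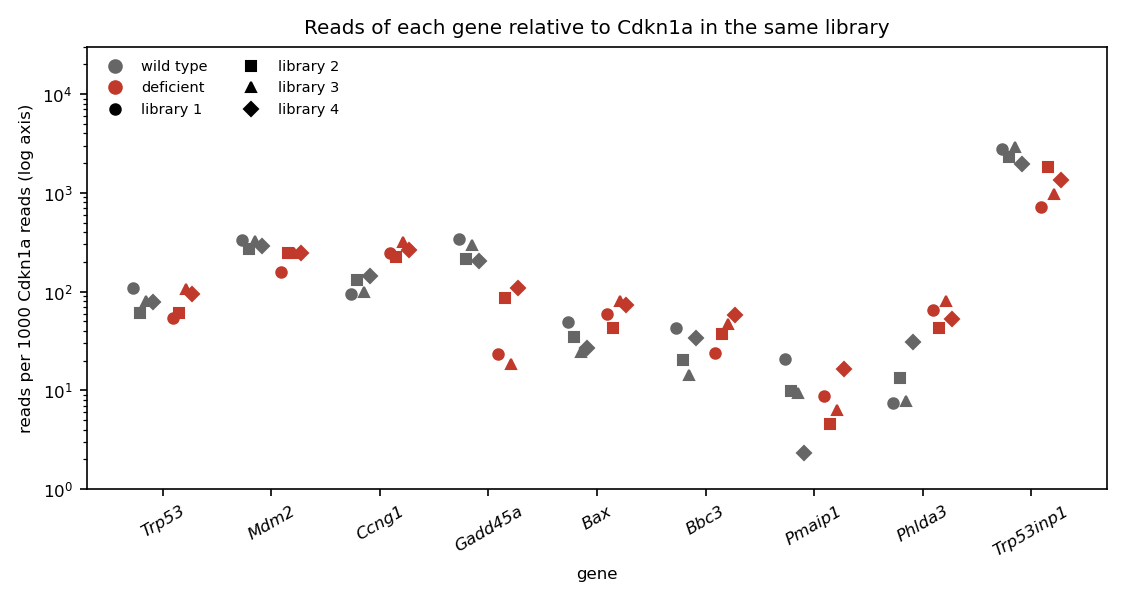
Reads of each of the 9 other genes per 1000 Cdkn1a reads in the same library (log axis), with wild-type libraries in grey and deficient libraries in red. Ccng1 and Phlda3 are higher and Gadd45a, Trp53inp1 and Mdm2 lower in every deficient library than in every wild-type library.

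By the mean absolute difference of centred log2 CPM over the 8 libraries, the genes whose pattern was most like that of Cdkn1a were Tmed7 (0.0484), Ppp1r2 (0.0545), Larp7 (0.0645), Mapre1 (0.0671) and Sdcbp (0.0763). The choice used the libraries of both genotypes, so no test between genotypes is given for these genes.

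Further genes of the pathway were read from lists. Of 23 tested regulators of p53, 2 rose and 3 fell, a share of 21.7% beside the background of 19.9%, so the list as a whole is not read as a result. Kat2b, an acetyltransferase of p53, fell by 0.999 (log2, SE 0.21, edgeR adjusted p = 0.0111). Hipk2, a kinase of p53, fell by 0.97 (SE 0.29), and Pml, whose nuclear bodies recruit p53, fell by 0.69 (SE 0.22). Ppm1d, a phosphatase that dampens p53 and is itself a target, rose by 0.70 (SE 0.21), as did Wrap53. Mdm4, the other main inhibitor of p53, was at -0.57 (SE 0.20) and did not pass (edgeR adjusted p = 0.0651). When each of the 8 libraries was left out in turn, Kat2b kept its call in all 8 fits, whereas Hipk2 lost it in 5, Pml in 6, Ppm1d in 7 and Wrap53 in 6.

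Among 17 other tested targets in arrest and signalling, 5 rose and 4 fell, a share of 52.9% beside the background of 19.9%. The list was chosen with earlier results of these data known, so this share is not read as an excess. Zmat3, an RNA-binding protein, rose by 1.15 (SE 0.24, edgeR adjusted p = 0.00991). Gtse1, a p53-binding protein of the G2 phase, rose by 1.51 (SE 0.43), and Tob1, an antiproliferative factor, by 0.54 (SE 0.17). Psrc1, a spindle protein, rose by 2.35 (SE 0.49) from few reads, with 3, 14, 3 and 6 reads in wild-type libraries 1 to 4 and 43, 29, 41 and 38 in the deficient ones. The rise of Psrc1 was 3.09 without wild-type library 2 and 0.60 with limma on log2(FPKM + 1). Ckap2, another spindle protein, also rose, from 5, 2, 1 and 3 reads to 23, 28, 13 and 13 reads in libraries 1 to 4 (edgeR adjusted p = 0.0106). No fold is given for Ckap2, since its wild-type mean of 0.179 CPM lies under the level of 3 reads per library. Gdf15, a secreted stress cytokine, fell by 1.76 (SE 0.33, edgeR adjusted p = 0.00708), from 444 to 696 CPM in wild-type libraries to 95.8 to 284 CPM in deficient libraries. Btg2 and Plk3, early-response genes that restrain division, fell by 0.82 (SE 0.27) and 1.02 (SE 0.32). With each library left out in turn, Zmat3, Psrc1, Ckap2 and Gdf15 lost no call, whereas Gtse1 lost it in 6 fits, Tob1 in 7, Btg2 in 7 and Plk3 in 5. Psrc1 and Ckap2 passed the expression filter through the deficient libraries, where they are high, so their kept calls are not counted as support. Ckap2 was tested under 16 of the 19 alternatives.

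Of 20 other tested apoptosis targets, 2 rose and 4 fell, a share of 30% that is likewise not read as an excess over the background of 19.9%. Aen, a nuclease, rose by 0.63 (SE 0.16, edgeR adjusted p = 0.0195), and Pidd1, a scaffold for caspase-2, by 1.43 (SE 0.37). Bcl2l11, the BH3-only protein BIM, fell by 1.27 (SE 0.28, edgeR adjusted p = 0.0121), and the death receptor gene Fas fell by 0.92 (SE 0.25). Perp, a membrane protein, and Steap3, a ferrireductase, fell by 0.60 (SE 0.17) and 0.85 (SE 0.23). Of 16 tested members of the BCL2 family outside the 10 genes, Bad, a BH3-only protein, rose by 0.95 (SE 0.22, edgeR adjusted p = 0.0149), Bcl2l11 fell as given, and the others did not pass. The share that passed was 12.5% of this family, beside 19.9% of all genes tested. Bcl2l11 and Bad lost no call with a library left out, whereas Aen and Pidd1 lost it in 2 fits each, Fas and Steap3 in 3 and Perp in 5.

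Of 11 tested DNA repair targets, 3 rose and none fell. The share of 27.3% stands beside 9.27% of all genes tested that were called higher. With so few genes this count is a description and is not read as an excess. Polk, a translesion polymerase, rose by 1.86 (SE 0.35, edgeR adjusted p = 0.00766), Ogg1, which excises oxidized guanine, by 2.16 (SE 0.39), and Fancc, of the Fanconi anaemia complex, by 1.73 (SE 0.26). All 3 kept their calls under all alternatives in which they were tested, but with limma on log2(FPKM + 1) the rises were 0.84 for Polk, 0.77 for Ogg1 and 1.13 for Fancc, on a scale that understates the change of low genes. Ogg1 had 10, 5, 6 and 10 reads in wild-type libraries 1 to 4 and 40, 30, 57 and 28 in the deficient ones. It passed the expression filter through the deficient libraries, so its kept calls are not counted as support. Ddb2 and Xpc, damage sensors of nucleotide excision repair, did not pass, at -0.30 (SE 0.41) and 0.24 (SE 0.22). Of 16 tested metabolic and antioxidant targets, 1 rose and 3 fell, a share of 25%. Sesn2, a sestrin that restrains mTORC1, rose by 0.72 (SE 0.21, edgeR adjusted p = 0.0313), whereas Gpx1, a glutathione peroxidase, fell by 0.58 (SE 0.16), Aldh4a1, of proline breakdown, by 0.78 (SE 0.21), and Gamt, of creatine synthesis, by 0.77 (SE 0.18). With a library left out, Gamt lost no call, Gpx1 and Aldh4a1 lost it in 3 fits each and Sesn2 in 5. In these 4 lists together, 11 of 64 tested targets rose and 11 fell, so 34.4% passed beside the background of 19.9%. The lists were chosen with earlier results of these data known, so this share is not read as an excess over the background.

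**Figure D5:**
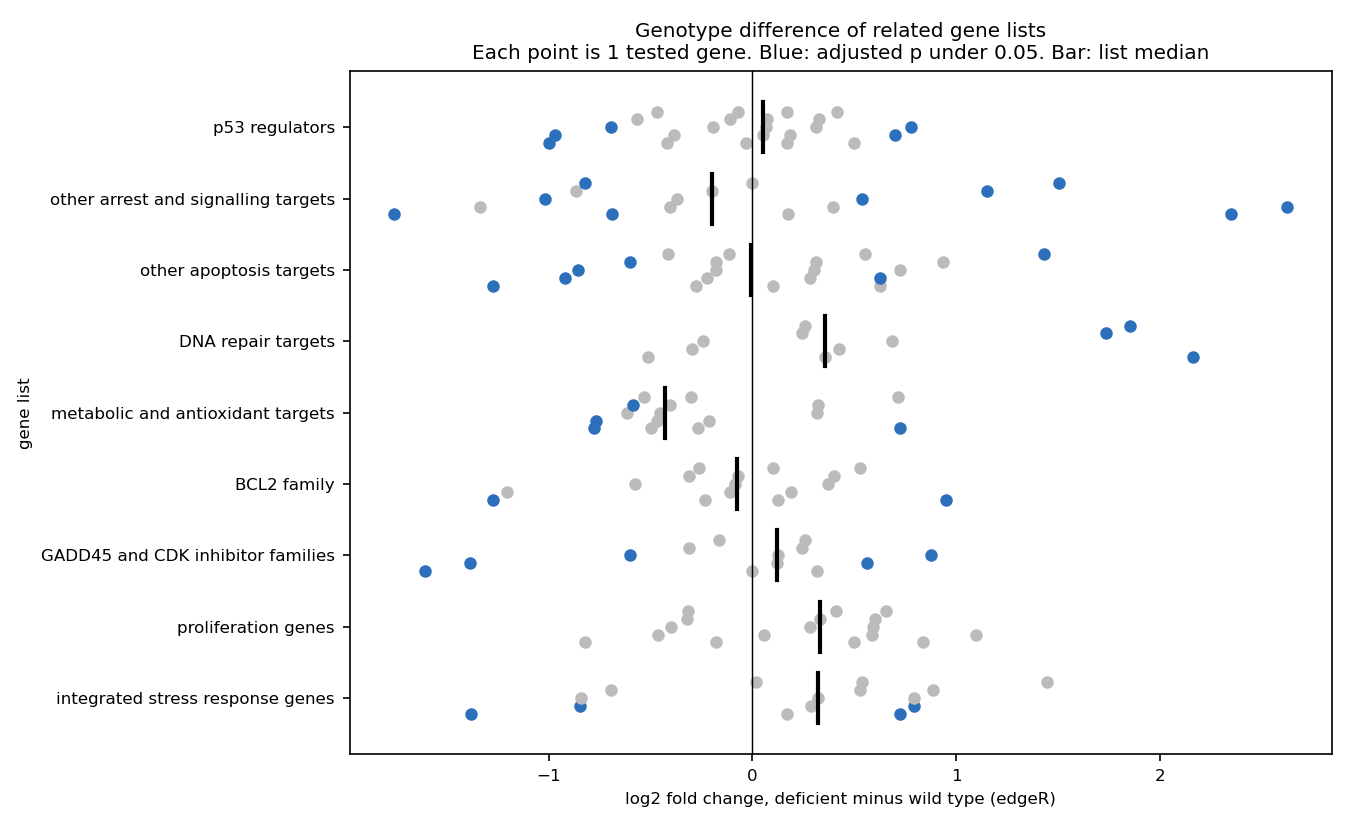
Log2 fold change (deficient minus wild type, edgeR) of each tested gene in 9 gene lists around p53, with genes at an adjusted p under 0.05 in blue and the list median as a bar. Most lists hold called genes on both sides of 0, the DNA repair targets hold 3 on the higher side only, and the proliferation genes hold none.

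In the families of Gadd45a and Cdkn1a and their partners, 2 of 13 tested genes rose and 3 fell, a share of 38.5% beside the background of 19.9%. As with the lists above, this share is not read as an excess. Gadd45b and Gadd45g fell as Gadd45a did, by 1.61 (SE 0.51, edgeR adjusted p = 0.0465) and 0.60 (SE 0.18, edgeR adjusted p = 0.0395). Cdk6, a kinase of G1 progression, fell by 1.39 (SE 0.24), while Cdk2 and Cdk4, kinases of the same stage, rose by 0.88 (SE 0.21) and 0.56 (SE 0.14). Ccng2, the relative of Ccng1, did not pass (SE 0.28, edgeR adjusted p = 0.996). Of 17 tested proliferation genes none passed in edgeR, 3 were higher and 0 lower at an unadjusted p under 0.05, and the smallest p was that of the replication helicase gene Mcm2 at 1.10 (SE 0.37, edgeR adjusted p = 0.0554). Under the alternatives 0 to 3 of them were called, all higher, with 3 when libraries were scaled by their totals alone and 3 without wild-type library 1, 2 with limma and 1 with DESeq2. Of 15 tested genes of the integrated stress response, which shares Sesn2 with p53, Sesn2 and Nupr1, a stress-induced chromatin protein at 0.79 (SE 0.24), rose. Atf3, a stress transcription factor, fell by 1.38 (SE 0.45), and Chac1, which degrades glutathione, by 0.85 (SE 0.24). Of this stress response list 26.7% passed. With a library left out, Cdk6 and Cdk2 lost no call, Cdk4 lost it in 1 fit, Chac1 in 5, and Gadd45b, Gadd45g, Atf3 and Nupr1 in 6 each. When libraries were scaled by their totals alone, calls of genes that fell were lost, namely those of Gadd45b, Gadd45g and Atf3, of Pml, Btg2, Plk3, Perp, Steap3 and Gpx1 above, and of the cell markers Adgre1, Clec4f, Csf1r, Gzma and Dcn below. With limma on log2(FPKM + 1) the fall of Cdk6 was 0.79. The list medians were 0.05 for regulators, -0.20 for arrest and signalling, -0.01 for apoptosis, 0.36 for DNA repair, -0.43 for metabolic targets, -0.08 for the BCL2 family, 0.12 for the GADD45 and CDK families, 0.33 for proliferation and 0.32 for the stress response. Scaling by library totals alone raised the median of all genes to 0.14 and those of the apoptosis list and the BCL2 family to 0.13 and 0.07, so the direction of these 2 medians is not set. Over all alternatives the median of the regulators ran from -0.05 to 0.20 and that of the GADD45 and CDK families from -0.09 to 0.27, so theirs is not set either.

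Markers of liver cell types were read in the same libraries, because in bulk tissue fewer cells of a type and less RNA per cell cannot be told apart. Beside the counts below, 9.27% of all genes tested were called higher and 10.6% lower in deficient livers. With so few markers in each list, the counts are descriptions and are not read as a difference from that background. The summed level of 8 hepatocyte markers ran from 72469 to 98926 CPM in the deficient group and from 106880 to 119970 CPM in the wild type, and 1 of the 8 (Cps1) fell, by 0.94 (SE 0.24). Of 8 Kupffer cell and macrophage markers 4 fell, namely Clec4f by 1.03, Adgre1 by 1.24, Cd5l by 1.34 and Csf1r by 1.12 on the log2 scale, with sums of 39.3 to 47.6 and 45.5 to 127 CPM. Of 6 tested neutrophil markers Mmp8 rose by 2.12 and Cxcr2 by 1.53, with sums of 78.3 to 154 and 22.2 to 88.5 CPM. Mmp8 and Cxcr2 passed the expression filter through the deficient libraries, where they are high, so their calls are not counted as support. Of 3 tested T and NK cell markers Gzma fell by 0.84, with sums of 7.89 to 11.5 and 8.70 to 16.6 CPM. Single markers fell among those of endothelial cells (Clec4g by 1.39, of 6, sums of 42.9 to 67.9 and 36.0 to 91.4 CPM), cholangiocytes (Sox9 by 2.06, of 5, sums of 43.4 to 152 and 194 to 234 CPM) and erythroid cells and platelets (Ppbp by 1.49, of 5, sums of 207 to 353 and 174 to 1328 CPM). Reln and Dcn, 2 of 6 stellate cell markers, fell by 0.99 and 0.66, with sums of 76.5 to 144 and 129 to 196 CPM. None of the markers found in the table was at 0 in all libraries, although Ly6g, Mpo, Cd3e, Cd3d, Cd4 and Klrb1c were too low to be tested. With a library left out, Reln and Ppbp lost no call. Ppbp passed the expression filter through the wild-type libraries, where it is high, so its kept calls are not counted as support. Cd5l, Mmp8 and Clec4g lost the call in 2 fits each, Cps1 and Sox9 in 3, and Csf1r and Cxcr2 in 5. Clec4f, Gzma and Dcn lost it in 6 fits and Adgre1 in 7. Without deficient library 2, which stood apart from its group, the fall of Sox9 was 3.20. Without deficient library 4, which did so for Mmp8, the rise of Mmp8 was 1.37 and did not pass, and without wild-type library 1 the fall of Cd5l was 0.74. With limma on log2(FPKM + 1) the rises of Mmp8 and Cxcr2 were 0.86 and 0.61, and the falls of Clec4g, Csf1r, Ppbp and Reln were 0.65, 0.43, 0.70 and 0.39. Whether shifts in these cell types had a part in the differences of the 10 genes was not tested.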

How the data were processed

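RNA was sequenced in 8 libraries of mouse liver, 4 per genotype, grouped by the genotype in the labels. Per the labels' protocols, polyadenylated RNA was selected, primed with random oligonucleotides and sequenced on an Illumina NovaSeq. The deposited table holds, per the file headers, raw read counts and FPKM per gene and library beside identifiers, coordinates and lengths. FPKM, computed by the authors, was recomputed from the deposited counts and lengths within 7e-05%. The submitters' processing notes name cutadapt, a trimmer, and HISAT2 2.0.5, an aligner. The counter, its strand setting, the annotation release and the build were not given in the sources used here. Gene coordinates are as the table lists them. Only 2.36% of 21795 shared genes have the GRCm38 start, so the RefSeq promoter windows (GRCm38.p6) were matched by symbol.

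Counts were tested with edgeR 4.0.16 (R 4.3.3), quasi-likelihood, TMM scaling and the default expression filter, which kept 11380 genes and removed 10519. P-values were adjusted over all of these (Benjamini-Hochberg, threshold 0.05). A gene can pass the filter through the libraries of either genotype alone. A standard error is the log2 fold change divided by the square root of F. Single values were compared by exact two-sided permutation over the 70 assignments of libraries. The test was checked on counts simulated with the spread estimated from these libraries. It recovered 48.4% of 95 genes changed 2-fold and 92.8% of 97 changed 4-fold, with 3 false calls. A change of about 2-fold can thus fail to pass. Replicates differed by more than counting noise (chi-square per degree of freedom 21.53 to 109.42).

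The members and the 17 gene lists were chosen with earlier results of these data known, and a list is described by counts and its median, with no test. Named were all members, P2rx4, up to 3 genes with the smallest p in each list and 5 genes most like Cdkn1a. The other called genes of the pathway lists, Clec4f, and the uncalled Mdm4, Ddb2, Xpc and Ccng2 were added after seeing their values. For 20 symbols with several identifiers, the identifier with most reads was taken. Alternatives were other scalings, filters, a robust fit, DESeq2 1.42.0, limma 3.58.1 on log2(FPKM + 1) or log2(FPKM + 0.1) on genes reaching an FPKM of 0.5 in 4 libraries, a block for the replicate number, and leaving out single libraries. Removal of GC content or gene length trends was added after seeing the data. The values of 1 gene counted in the lists are not reported here.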

Additional observations from a re-analysis of the deposited data

Results flagged for a closer look

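In 92 groups of 4 libraries, the gap between the most extreme library and the next was compared with the group's range (Dixon's test at the 95% level), and 9 groups passed, where chance gives about 1 in 20. Among the 10 genes, only Bax did so: deficient library 2 was at 14.97 CPM, below the 18.7 to 19.0 CPM of the other deficient libraries. Among the other genes, deficient library 2 was also apart for Sox9, at 96.7 CPM against 9.65 to 21.1, and for Chac1, at 28.8 CPM against 15.6 to 17.7. Deficient library 3 was at 5.61 CPM of Mcm2 against 2.93 to 3.04. Deficient library 4 was at 4.998 CPM of Cdk2 against 7.30 to 7.64 and at 8.16 CPM of Mmp8 against 1.74 to 2.73. Wild-type library 1 was at 35.9 CPM of Cd5l against 9.74 to 13.3, wild-type library 2 at 51.0 CPM of Chac1 against 28.8 to 31.1, and wild-type library 3 at 132.7 CPM of Aldh4a1 against 87.0 to 91.8.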

How the results depend on the processing

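Over 19 alternatives, 167 of 190 values of the 10 genes kept their direction and side of the threshold, 7 lost a call, 1 gained one and 15 changed sign. Bax, Ccng1 and Gadd45a were called under all 19 alternatives and Phlda3 under 18. The changes of sign were all in genes that did not pass. Cdkn1a was at 0.12 with library totals alone, 0.0037 without a filter and 0.12 with limma at either pseudocount, and between -0.14 and 0.0636 with a library left out. Trp53 was at 0.0508 with library totals alone and 0.0398 and 0.0456 with limma at pseudocounts of 1 and 0.1, and between -0.16 and 0.0066 with a library left out. Pmaip1 was at 0.0659 with limma at 0.1 and between -0.55 and 0.16 with a library left out. With a library left out, 3 to 6 of the 10 genes were called, 2 to 3 higher and 1 to 3 lower, the smallest number being without wild-type library 3. Over all genes 982 to 2388 were called, 454 to 1079 higher and 528 to 1309 lower, with 982 without wild-type library 3, 1224 without deficient library 3 and 1482 without deficient library 1. The higher genes numbered 1731 with library totals alone (843 lower), 1602 with limma at a pseudocount of 1 (813 lower) and 1594 at 0.1 (814 lower), beside 1055 higher and 1209 lower with TMM scaling, and the median of all genes moved to 0.14 and 0.13 with library totals alone and with limma at 0.1. The cause was not tested. Same-numbered libraries did not deviate together (r of 0.13, -0.11, 0.07 and -0.11), so the numbers were not taken as pairs, and with the replicate number as a block 1768 genes were called (761 higher, 1007 lower) and 5 of the 10 genes (3 higher, 2 lower). Pmaip1 had the fewest reads of the 10 genes, 12 to 75 per library, and whether depth or the spread between libraries widened its interval was not tested.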
